A study of Drosophila melanogaster with 12 samples.

Results

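The transcripts described here are those read below their control on every array of a two-colour microarray series of Drosophila melanogaster embryos. They are 100 of the 14485 reporters, the printed probes, in the table of log2 ratios deposited by the authors. A reporter was taken when its log2 ratio of construct over GFP was below 0 on all 12 arrays and its mean over the 12 was -0.25 or lower. Of all reporters, 157 were below 0 on all 12 arrays (1.08%), and 105 of these also met the limit on the mean (0.725%). Another 5, the reporters of Cyp4p2, Cyp28d2 and CG14453 and both reporters of HnRNP-K, were left out by name. The 100 members were thus selected on their deposited ratios over GFP, which are described below without a test, because a set chosen for being low has to be low.

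Total RNA came from whole embryos of stages 8 to 9, collected between 3.5 and 4.5 h at 25 °C. Females carrying simGal4 were crossed to males carrying a UAS transgene, so that the transgene was expressed under the driver. The design text speaks of dominant negative constructs without naming which of the 3 it means. The transgenes are named EnRep, DichaeteWT and HMG-minus after the labels, and each was measured on 4 arrays, 1 per biological replicate. Every array set 1 of these constructs against embryos in which simGal4 drove UAS GFP. Both RNAs on an array therefore came from embryos with the driver and a UAS transgene. Dyes were swapped between replicates, with the construct in Cy3 on the first pair, replicates 1 and 2, and in Cy5 on replicates 3 and 4. This held for all 3 constructs, so dye orientation and replicate pair cannot be told apart. Values described below as split by dye are equally split by replicate pair.

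As background, Gal4 is a yeast activator that switches on any gene placed behind its UAS sites, and the driver used here takes its name from single-minded, the master regulator of the ventral midline of the nerve cord. Dichaete is a SoxB transcription factor that binds DNA through an HMG domain and acts in the midline and the neuroectoderm. Midline cells are a small part of an embryo, so whole-embryo RNA holds mostly transcripts of other cells. In such RNA, fewer cells of a type and less RNA per cell cannot be told apart. All 12 arrays used GFP embryos as the control, so a transcript lower in the 3 constructs and one higher in the GFP embryos cannot be told apart either.

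The spot finder accepted 86.8% to 98.3% of spots in Cy3 and 71.9% to 92.9% in Cy5, and median foreground intensities lay between 247 and 433 in the Cy3 channel and between 280 and 421 in Cy5. Of the 100 members, 61 were accepted in both channels on all 12 arrays, against 41.3% of all reporters, and 5 were accepted in both on fewer than 6 arrays, against 7.24%. The lowest correlation between 2 arrays of the same dye orientation was -0.08 over all reporters, for EnRep replicate 4 and DichaeteWT replicate 3, and the highest was 0.68. EnRep replicate 4 stood apart, with the largest SD of log2 ratios over all reporters, 0.398, the lowest correlation between deposited and re-normalised member values, 0.754, and median log2 ratios of 2.35 for 17 trypsin-like digestive proteases, 1.24 for 10 later muscle reporters and -0.52 for 6 neuroblast reporters. Without it the rule would have taken 112 reporters, 93 of them among the 100.

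Most members were only slightly below GFP. The median of the 100 means was -0.33 log2, which is 0.795 of the GFP level, and 59 means lay between -0.35 and the limit of -0.25. Only 16 members had a mean of -0.5 or lower and 1 a mean of -1 or lower. On single arrays the members came close to 0, and 72 of the 100 had at least 1 array above -0.1. Only 8 members were at -0.25 or lower on every array. The limit on the mean falls within a continuum of values. Just inside it were Erk7 at -0.2505, Pdxk at -0.2516 and eIF2Bgamma at -0.2534, and just outside were CG6766 at -0.2494, CG17712 at -0.2481 and CG5116 at -0.2463.

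Of the members, 86 carry 1 gene symbol, for 86 genes, and 14 carry none and are given by their reporter number. A role known with confidence could be given to 47 members in 8 groups, which order the account below. The medians of the member means in these groups ran from -0.32 to -0.39, close to the median of all 100.

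**Figure D1:**
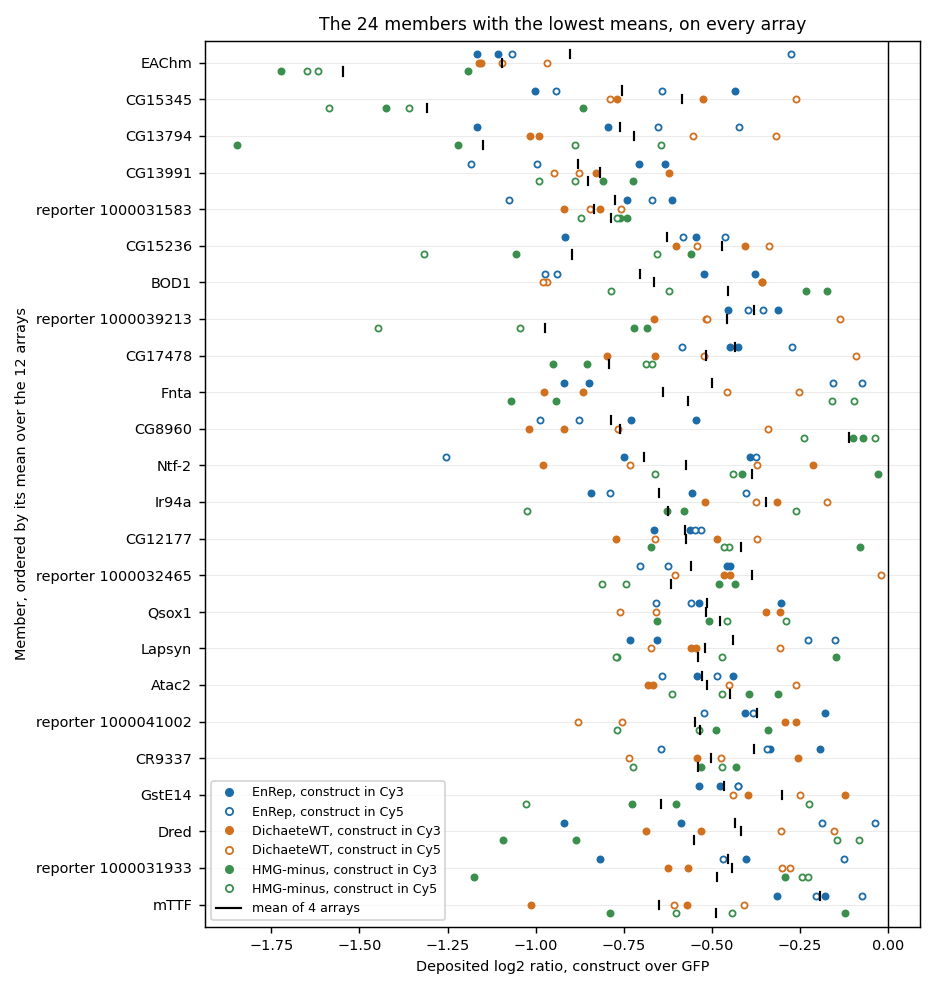
Deposited log2 ratio of construct over GFP (x axis) of the 24 members with the lowest means (y axis), with 1 point per array, filled where the construct was in Cy3 and open where it was in Cy5, and a black bar at the mean of each construct's 4 arrays. EAChm lies lowest, with 11 of its 12 points below -0.95 and EnRep replicate 4 at -0.28. The Fnta and Dred points separate by dye, which is also by replicate pair.

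Among chromatin and transcription genes, with 8 members, EAChm was the lowest of the whole set. EAChm is named for enhancing the acetyltransferase Chameau, a histone-modifying enzyme. Its log2 ratios were -1.11, -1.17, -1.07 and -0.28 on EnRep replicates 1 to 4. The DichaeteWT arrays gave -1.16, -1.16, -0.97 and -1.10, and the HMG-minus arrays gave -1.72, -1.19, -1.65 and -1.62. All arrays but EnRep replicate 4 were at -0.97 or lower, and the lowest 3 values were all from HMG-minus. The mean was -1.18 (SD 0.38 over 12 arrays), or 0.441 of the GFP level. The spot was dim, and in the raw scans the construct channel exceeded its local background by 38 to 237 intensity units while the GFP channel exceeded its own by 113 to 535. The spot finder accepted the GFP channel on all 12 arrays and the construct channel on 3 of 4 arrays of each construct.

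The other chromatin and transcription members were nearer 0. Atac2, the second acetyltransferase of the ATAC coactivator complex, had a mean of -0.50 (SD 0.14 over 12 arrays). Its values ran from -0.64 to -0.44 in EnRep, from -0.68 to -0.26 in DichaeteWT and from -0.61 to -0.31 in HMG-minus, so that it was among the 8 members at -0.25 or lower on every array. l(3)73Ah, a RING protein of the PCGF type known from Polycomb complexes, had a mean of -0.35 with 2 arrays far below the rest, EnRep replicate 4 at -0.80 and DichaeteWT replicate 4 at -1.12. After re-normalization from the intensities these 2 arrays were at -0.50 and -0.20. Its spot was accepted on 2 of 4 DichaeteWT arrays in each channel. Bap170, a subunit of the PBAP chromatin remodelling complex, had a mean of -0.33, and Etl1, a helicase-like remodeller of the SNF2 family, -0.32. Brd8, a bromodomain protein of the Tip60 complex, had -0.32, and udd, which takes part in RNA polymerase I transcription, had -0.27. The mod(mdg4) reporter, for a BTB protein family of chromatin insulators, had -0.31.

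Of the 5 reporters for chameau and its relatives, only EAChm was a member. For chm itself the fitted log2 ratios over GFP were -0.04, -0.04 and 0.07 in EnRep, DichaeteWT and HMG-minus. No reporter of chm, mof, Tip60 or enok, all acetyltransferases of the MYST family, was called in any construct, and 0 of these 4 had an unadjusted p below 0.05, against 14.1%, 15.6% and 13% of all reporters in EnRep, DichaeteWT and HMG-minus. The call is limma's, with a Benjamini-Hochberg adjusted p below 0.05 over all reporters, and it fell on 0.324%, 0.483% and 0.435% of all reporters as lower, and on 0.428%, 0.38% and 0.421% as higher, in the 3 constructs in that order. In the same test 20, 35 and 26 members were called lower in EnRep, DichaeteWT and HMG-minus, counts that the choice of members on the same contrast makes unreadable.

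DNA replication, repair and chromosome segregation also held 8 members. BOD1, known in human cells for keeping chromosomes correctly oriented on the spindle, had the lowest mean of the group, -0.61 (SD 0.31 over 12 arrays). It read -0.38, -0.52, -0.97 and -0.94 in EnRep, -0.36, -0.36, -0.97 and -0.98 in DichaeteWT and -0.17, -0.23, -0.62 and -0.79 in HMG-minus. Within each construct the lower pair was the one with the construct in Cy5. Replication itself was represented by 4 members. Cdc45, a subunit of the active replicative helicase, had a mean of -0.40, with construct means of -0.40 (SD 0.22), -0.40 (SD 0.10) and -0.40 (SD 0.14) in EnRep, DichaeteWT and HMG-minus (n = 4 each). Orc5, a subunit of the origin recognition complex, had -0.31, Ctf4, which links helicase and polymerase, -0.32, and Prim2, the large primase subunit, -0.27.

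Gen, a nuclease that resolves Holliday junctions, had a mean of -0.39. rad50, part of the complex that holds broken DNA ends, had -0.33. SA1, a cohesin subunit, had -0.32. Gen and rad50 split by dye in opposite directions, as given below with the dye term, while SA1 ranged from -0.65 to -0.05 with both extremes on HMG-minus arrays.

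In RNA processing and nuclear transport, with 6 members, Ntf-2 was lowest. Ntf-2 carries the small GTPase Ran back into the nucleus. Its values were -0.39, -0.75, -0.37 and -1.25 in EnRep, -0.98, -0.21, -0.73 and -0.37 in DichaeteWT and -0.03, -0.41, -0.66 and -0.44 in HMG-minus. They spread widely within every construct, for a mean of -0.55 (SD 0.34 over 12 arrays). Impbeta11, an importin, had a mean of -0.34 and its lowest value, -0.93, on HMG-minus replicate 2. Wdr33 and CstF50, which act in cleavage and polyadenylation of messenger RNA ends, had means of -0.35 and -0.27. thoc5, of the THO complex for mRNA export, had -0.30, and PQBP1, a splicing factor, -0.28 with an SD of only 0.11.

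The 4 members of selenoprotein synthesis, translation and mitochondrial transcription had means between -0.44 and -0.25. mTTF, which terminates mitochondrial transcription, was lower in DichaeteWT, at -1.01, -0.57, -0.61 and -0.41, than in EnRep, at -0.18, -0.31, -0.07 and -0.20. In HMG-minus it read -0.12, -0.79, -0.60 and -0.44. The EnRep and DichaeteWT arrays did not overlap for mTTF, and the HMG-minus arrays overlapped both. Sps2 and Secp43, both of selenoprotein synthesis, had means of -0.41 and -0.30. eIF2Bgamma, a subunit of the exchange factor for translation initiation, was the most even member of all, with an SD of 0.08 over the 12 arrays.

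Metabolic enzymes and transporters were the largest group with a role, at 10 members. CG13794, of the family of sodium-coupled neurotransmitter transporters, had the lowest mean, -0.88 (SD 0.42 over 12 arrays). It read -0.79, -1.17, -0.65 and -0.42 in EnRep, -0.99, -1.02, -0.55 and -0.32 in DichaeteWT and -1.85, -1.22, -0.89 and -0.64 in HMG-minus. In each construct both Cy3 arrays were lower than both Cy5 arrays. Fnta, the alpha subunit of protein farnesyltransferase, had a mean of -0.57 with the same order, at -0.85 and -0.92 against -0.07 and -0.16 in EnRep. Qsox1, which forms disulphide bonds in secreted proteins, had a mean of -0.50 (SD 0.16) and a range of -0.76 to -0.29. Hmt-1, an ABC transporter, had a mean of -0.33 and Art7, an arginine methyltransferase, -0.29. Ctps, which makes CTP, had -0.30, Mocs2B, of molybdenum cofactor synthesis, -0.29, and Pdxk, pyridoxal kinase, -0.25. Ctps and Pdxk each have another reporter, with means of 0.03 and 0.01.

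Both glutathione S-transferases in this group had even values in EnRep, with SDs of 0.05 and 0.04 over 4 arrays. These enzymes join glutathione to reactive compounds, and GstE14 is needed for the synthesis of the moulting hormone ecdysone. GstE14 read -0.54, -0.48, -0.43 and -0.43 in EnRep, -0.40, -0.12, -0.44 and -0.25 in DichaeteWT and -0.73, -0.60, -1.03 and -0.23 in HMG-minus. GstD5 read -0.54, -0.45, -0.46 and -0.50 in EnRep, -0.37, -0.11, -0.39 and -0.37 in DichaeteWT and -0.44, -0.40, -0.30 and -0.43 in HMG-minus. For GstD5 every EnRep array was lower than every DichaeteWT array. The GstE14 spot was dim, accepted in both channels on 7 of 12 arrays. Before normalization its background-subtracted intensity was higher for the construct than for GFP on EnRep replicate 3, 78 against 77, and on DichaeteWT replicate 2, 195 against 184. For GstD5 the same held on DichaeteWT replicate 2, 446 against 425. Of 29 glutathione S-transferase reporters for 28 genes, these were the only 2 members, and none of the other 27 was called by limma in any construct, with 2, 7 and 4 of them at an unadjusted p below 0.05 in EnRep, DichaeteWT and HMG-minus. The medians of all 29 were 0.00, 0.03 and -0.03 in EnRep, DichaeteWT and HMG-minus. The D-class genes are close relatives of one another, and whether the GstD5 reporter also reads others of them was not tested. Of 35 UDP-glycosyltransferase reporters, another family of conjugating enzymes, 0 were members and 0 were called by limma, with 5, 4 and 6 at an unadjusted p below 0.05.

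Receptors and signalling made up 8 members. kek1, a transmembrane protein of the Kekkon family that binds the EGF receptor and inhibits it as a feedback target of the pathway, had a mean of -0.43 (SD 0.23 over 12 arrays). Its values were -0.23, -0.35, -0.60 and -0.13 in EnRep, -0.25, -0.26, -0.42 and -0.41 in DichaeteWT and -0.67, -0.29, -0.84 and -0.74 in HMG-minus. In HMG-minus 3 of 4 arrays of the deposited ratios lay below every array of the other 2 constructs. On the re-normalised scale HMG-minus replicate 1, at -0.53, was above EnRep replicate 3, at -0.71. Before normalization the background-subtracted intensities were equal on EnRep replicate 1, 263 in each channel, and lower for the construct on the other 11 arrays. The fitted difference between HMG-minus and DichaeteWT was not called. Of the other 5 Kekkon reporters, whose deposited means lay between -0.01 for kek6 and 0.18 for kek2, none was called by limma in any construct, with 2, 0 and 2 at an unadjusted p below 0.05. Among 10 reporters of EGF receptor ligands, inhibitors and readouts, kek1 was the only member. These reporters cover 9 of the 13 genes listed, and vn, rho, ru and pnt were not measured under those symbols. Egfr itself had a deposited mean of -0.08, and the inhibitors aos and sty had means of 0.01, 0.08 and 0.03 over their 3 reporters. None of the other 9 reporters of this list was called by limma, with 1, 0 and 1 at an unadjusted p below 0.05.

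Lapsyn, a leucine-rich repeat protein of synapses, read -0.73, -0.66, -0.23 and -0.15 in EnRep and had a mean of -0.50. Pde11, a cyclic nucleotide phosphodiesterase, had a mean of -0.40. Chemosensory genes gave 3 members, the ionotropic receptor Ir94a at -0.54, the odorant-binding protein Obp59a at -0.38 and the gustatory receptor Gr8a at -0.31. The Ir94a spot was accepted in both channels on only 4 of 12 arrays. pip, a sulfotransferase known for setting the dorsoventral axis from the follicle cells, had means of -0.09 (SD 0.11) in EnRep, -0.17 (SD 0.12) in DichaeteWT and -0.51 (SD 0.18) in HMG-minus (n = 4 each). In the deposited ratios its EnRep and HMG-minus arrays did not overlap. On the re-normalised scale they did, with EnRep replicate 2 at -0.27 and HMG-minus replicate 2 at -0.23. Other reporters of pip differed in their means over the 12 arrays, as given below. All of them but reporter 1000045293 nevertheless had their lowest construct mean in HMG-minus. It was -0.56, -0.42 and -0.38 for reporters 1000034205, 1000034207 and 1000043127, and 0.05 for reporter 1000034206. Erk7, an atypical MAP kinase, had a mean of -0.25.

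Protein turnover and sorting had 2 members. Roc1b, a RING subunit of cullin ubiquitin ligases, had a mean of -0.44, with its lowest value of -0.98 on HMG-minus replicate 2. Vps60, of the ESCRT-III machinery that sorts membrane proteins, is described with the construct differences. Vm26Ac, a vitelline membrane protein of the eggshell, was the only eggshell member, with values from -0.33 to -0.01 in EnRep and from -0.98 to -0.13 in HMG-minus. The list of 7 reporters of yolk and follicle proteins held 0 members and 0 reporters called by limma, with 0, 0 and 1 at an unadjusted p below 0.05.

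The remaining 53 members had no role assigned here. CG13991 and reporter 1000031583 were low, with similar means in every construct. CG13991 had construct means of -0.88 (SD 0.26), -0.82 (SD 0.14) and -0.85 (SD 0.11) in EnRep, DichaeteWT and HMG-minus, and reporter 1000031583 had -0.78 (SD 0.21), -0.83 (SD 0.07) and -0.79 (SD 0.06) (n = 4 each). Both were accepted in both channels on all 12 arrays, and no array of either was above -0.61. The CG13991 arrays separated by dye, at -0.83 to -0.62 with the construct in Cy3 and -1.18 to -0.88 in Cy5. CG12177 was at -0.52 (SD 0.18 over 12 arrays), with HMG-minus replicate 1 at -0.08 and the rest at -0.37 or lower.

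CG15345 had the second lowest mean of all, -0.88, but rests on a dim spot. Its construct channel was accepted on 0 of 4 EnRep arrays, 1 of 4 DichaeteWT arrays and 1 of 4 HMG-minus arrays, and its GFP channel on 3 of 4 arrays of each construct. Its values were -0.43, -1.002, -0.64 and -0.94 in EnRep, -0.77, -0.53, -0.26 and -0.79 in DichaeteWT and -0.86, -1.42, -1.59 and -1.36 in HMG-minus. In these deposited ratios every HMG-minus array was below every DichaeteWT array. On the re-normalised scale the constructs overlapped, with HMG-minus replicate 2 at -0.83 and DichaeteWT replicate 4 at -0.92. The CR9337 spot was accepted in both channels on 1 of 12 arrays, so its mean of -0.47 has little signal behind it. CG15236 had a mean of -0.66 and CG17478 a mean of -0.58, with their lowest construct means in HMG-minus, -0.90 (SD 0.35) and -0.79 (SD 0.14). Reporters 1000032465, 1000041002 and 1000031933, which carry no symbol, had means of -0.52, -0.48 and -0.46. CG7970, in the lower ranks with a mean of -0.29, is a case in which 1 array carries the mean, with -1.56 on DichaeteWT replicate 1 and values between -0.38 and -0.06 elsewhere. It was named after its values were seen.

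**Figure D2:**
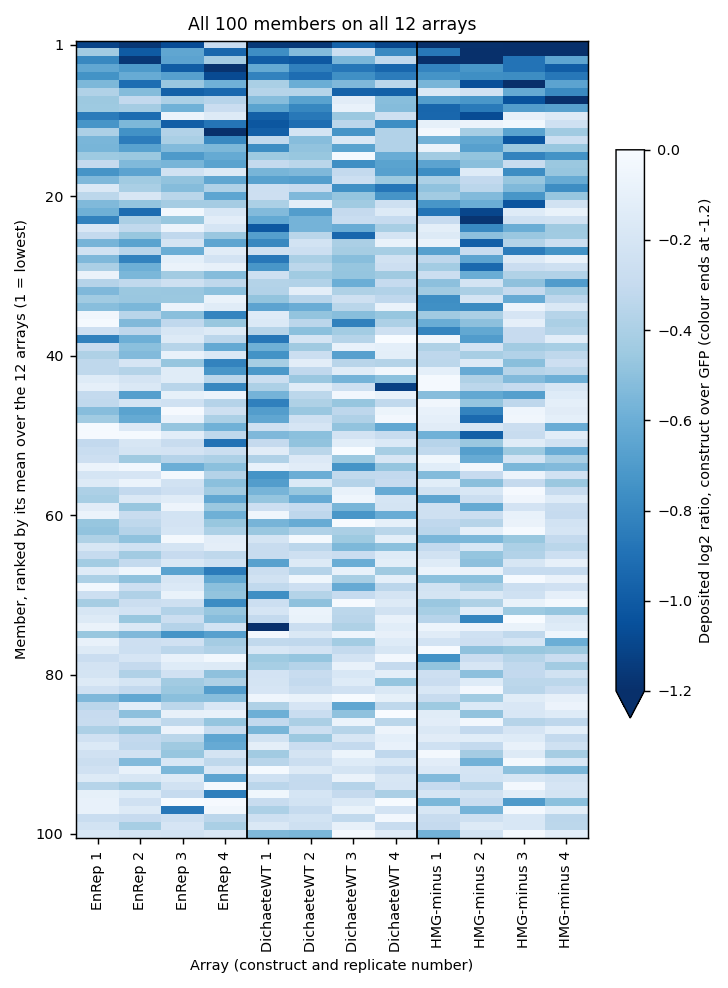
Deposited log2 ratio of construct over GFP (colour, darker is lower, ending at -1.2) of all 100 members (y axis, ranked by mean) on the 12 arrays (x axis, in 3 blocks of 4 replicates). Dark cells gather in the top ranks in all 3 blocks, while below rank 40 most cells are pale and single dark cells come from single arrays.

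The members varied less across arrays than other reporters did. Their SD over the 12 arrays had a median of 0.202, from 0.0839 to 0.417, against a median of 0.245 over all reporters. A low SD is part of what the rule asks for, since a reporter with a mean near -0.25 cannot spread far without crossing 0. In the deposited ratios the construct with the lowest mean was EnRep for 38 members, DichaeteWT for 30 and HMG-minus for 32. The construct medians were -0.35, -0.37 and -0.35 in that order, and no construct was the lowest for most of the members. On the re-normalised scale the construct medians were less even, at -0.28, -0.38 and -0.33. There EnRep minus DichaeteWT was above 0 for 67 of the 100 members, with a median of 0.05, against 0.004 over all reporters. The members share their arrays, and this shift was not tested.

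The differences between constructs are the comparison that the rule did not use directly. It did leave out every reporter with a deposited ratio at or above 0 on any array of any construct. The differences were tested with limma on ratios re-normalised from the intensities, over all 14485 reporters. For EnRep minus DichaeteWT 0 of the 100 members were called, against 0.0207% of all reporters. For HMG-minus minus DichaeteWT 0 were called, against 0% of all reporters, and for EnRep minus HMG-minus 0, against 0.0276%. At an unadjusted p below 0.05 the members numbered 9, 4 and 9, against 4.47%, 5.27% and 6.85% of all reporters. Median absolute differences, in the same order, were 0.094, 0.094 and 0.100 for the members and 0.098, 0.106 and 0.109 for all reporters. The median SE of a member's difference was 0.125 log2. The 95% interval lay wholly within 0.5 log2 of 0 for 76, 79 and 79 members and for all 3 differences together for 59, so that for the other members a difference of 0.5 log2 cannot be set aside at this number of arrays.

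The smallest adjusted p of any member was that of Vps60. It read -0.54, -0.64, -0.51 and -0.51 in EnRep, -0.06, -0.08, -0.01 and -0.10 in DichaeteWT and -0.28, -0.44, -0.14 and -0.10 in HMG-minus. All EnRep arrays were below all arrays of the other constructs. The fitted difference EnRep minus DichaeteWT was -0.57 log2 (SE 0.0913, 95% interval -0.77 to -0.38, limma adjusted p = 0.0916), which did not pass, and the adjusted p ran from 0.0706 to 0.695 over 22 alternatives. Against HMG-minus it was -0.38 (limma adjusted p = 0.437).

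CG13123 followed the same order. It read -0.47, -0.54, -0.74 and -0.67 in EnRep, -0.03, -0.17, -0.05 and -0.10 in DichaeteWT and -0.14, -0.24, -0.32 and -0.06 in HMG-minus, again with no overlap between EnRep and the other constructs. Its fitted differences were -0.51 for EnRep minus DichaeteWT (limma adjusted p = 0.478) and -0.49 for EnRep minus HMG-minus (limma adjusted p = 0.437). CG8960 instead stood nearer 0 in HMG-minus. It read -0.73, -0.55, -0.99 and -0.88 in EnRep, -1.02, -0.92, -0.34 and -0.77 in DichaeteWT and -0.10, -0.07, -0.04 and -0.24 in HMG-minus, so that HMG-minus overlapped neither of the others. The fitted difference HMG-minus minus DichaeteWT was 0.65 (95% interval 0.34 to 0.96, limma adjusted p = 0.458), and EnRep minus HMG-minus was -0.57 (limma adjusted p = 0.453).

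None of the further named differences passed. The difference for mTTF, EnRep minus DichaeteWT, was 0.56 (limma adjusted p = 0.892). For HMG-minus minus DichaeteWT, BOD1 gave 0.28 (limma adjusted p = 0.903) and reporter 1000039213 gave -0.33 (limma adjusted p = 0.903). In the deposited ratios that reporter read -0.68, -0.72, -1.04 and -1.45 in HMG-minus, all below its EnRep and DichaeteWT arrays, which lay between -0.66 and -0.13. On the re-normalised scale the constructs overlapped, with HMG-minus replicate 1 at -0.64 and DichaeteWT replicate 2 at -0.75. EAChm, whose deposited mean was lower in HMG-minus than in DichaeteWT, had a fitted difference of -0.15 (95% interval -0.60 to 0.30, limma adjusted p = 0.943) on the re-normalised scale.

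**Figure D3:**
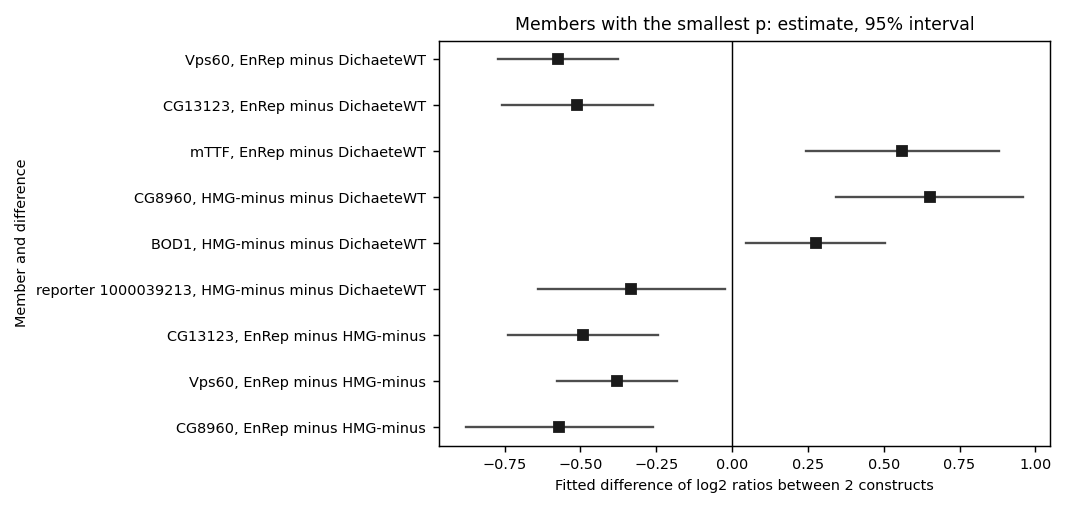
Fitted difference of log2 ratios between 2 constructs (x axis) for the members with the smallest p in each of the 3 differences (y axis), as the limma estimate with its 95% interval on 12 arrays. All 9 intervals leave out 0 before adjustment over all reporters, and none of the adjusted p-values passed 0.05.

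Dye orientation was called for a part of the members. A dye term shared by all arrays was called for 16 of the 100 members by limma, against 33.1% of all reporters. Since dye orientation and replicate pair coincide, the term also holds any difference between the pairs. A strong effect of either carries a reporter above 0 on some arrays and so out of the set, and nothing is read from the lower share. Of the 16, 8 were nearer 0 with the construct in Cy5 and 8 with the construct in Cy3. Fnta had the largest term, 0.36 (limma adjusted p = 0.000255). Its deposited mean was -0.94 on the 6 arrays with the construct in Cy3 and -0.20 on the 6 with it in Cy5, and the 2 sets did not overlap. CG13794, with a term of 0.30, had means of -1.17 and -0.58, and Dred, with 0.29, had -0.78 and -0.15.

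In the other direction the largest terms were those of BOD1, rad50 and Bap170. BOD1, at -0.29 (limma adjusted p = 0.00048), had means of -0.34 in Cy3 and -0.88 in Cy5. rad50, at -0.24, read between -0.13 and -0.04 in Cy3 and between -0.74 and -0.48 in Cy5, so that its mean of -0.33 comes mostly from the Cy5 arrays. Bap170, at -0.18, had -0.16 and -0.51. Gen, at 0.26, had -0.65 and -0.15. With loess within each print-tip the terms of CG13794, Dred and Bap170 were 0.04, 0.04 and 0.00 and lost their call (limma adjusted p = 0.669, 0.433 and 0.99), while 28 members were called in all. The count of 16 fell to 10 without EnRep replicate 2, EnRep replicate 3, DichaeteWT replicate 1 or DichaeteWT replicate 4, and to 9 without HMG-minus replicate 2. Of all 100 members, 51 had a mean of -0.25 or lower in both orientations, EAChm, CG13991 and Atac2 among them. CG13991 nevertheless had a called dye term of -0.15 (limma adjusted p = 0.0133), with means of -0.72 in Cy3 and -0.98 in Cy5.

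**Figure D4:**
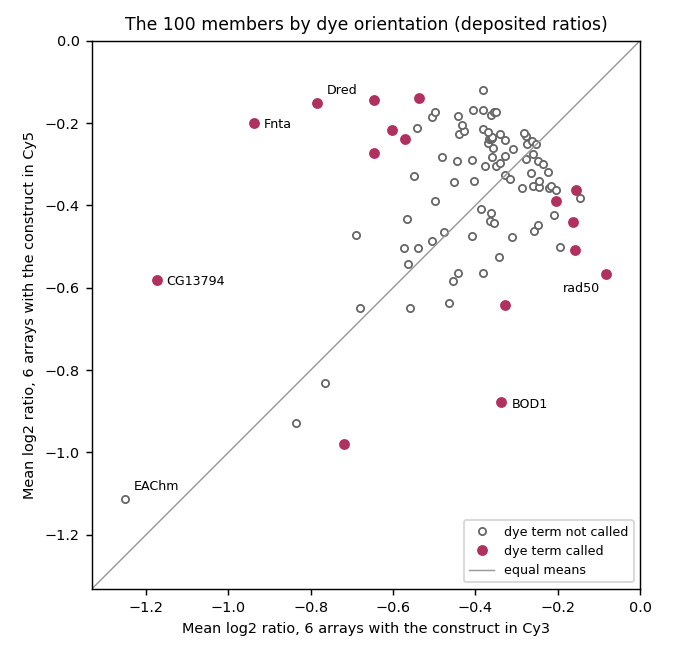
Mean deposited log2 ratio of each of the 100 members on the 6 arrays with the construct in Cy3 (x axis) against the 6 with it in Cy5 (y axis), with the 16 members whose dye term was called filled. Fnta, Dred and CG13794 lie above the line of equal means and BOD1 and rad50 below it.

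How far the members lay below GFP on each array was set beside markers of other cell types and stages. The member median was -0.31, -0.38, -0.29 and -0.42 on EnRep replicates 1 to 4, -0.39, -0.34, -0.35 and -0.29 in DichaeteWT and -0.31, -0.42, -0.30 and -0.30 in HMG-minus. The 17 trypsin-like digestive proteases, genes of the gut, had medians of -0.22, -0.20, -0.66 and 2.35 in EnRep, 1.79, 1.44, -0.45 and -0.55 in DichaeteWT and 0.44, 1.05, -0.14 and 0.48 in HMG-minus. The 2 lowest member medians, EnRep replicate 4 and HMG-minus replicate 2, were thus on the arrays with the highest protease median of their construct. In DichaeteWT both arrays with high proteases had member medians of -0.39 and -0.34, and those with low proteases had -0.35 and -0.29. Later muscle genes, with 10 reporters, had a median of 1.24 on EnRep replicate 4 and between -0.79 and 0.77 elsewhere. The part of these markers in the member values was not tested.

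Markers of other cell types held no members. Of 6 midline, 6 neuroblast, 4 mesoderm and 10 haemocyte reporters, and of 7 reporters of amnioserosa and dorsal ectoderm, 0 were members and 0 were called by limma in any construct. At an unadjusted p below 0.05 these lists had 2, 2 and 1 midline, 1, 1 and 1 neuroblast, 1, 1 and 0 mesoderm, 1, 0 and 2 haemocyte and 2, 0 and 2 amnioserosa and dorsal ectoderm reporters in EnRep, DichaeteWT and HMG-minus. The midline reporter of comm had a deposited mean of -0.34 and was below 0 on 11 of 12 arrays. Its fitted ratios were -0.27, -0.29 and -0.21 in EnRep, DichaeteWT and HMG-minus, against midline list medians of 0.09, -0.09 and -0.04. The 7 reporters of Commissureless and midline guidance, comm among them, also held 0 members and 0 called by limma, with 2, 3 and 0 at an unadjusted p below 0.05. The amnioserosa and dorsal ectoderm reporters had fitted ratios below 0 for 7 of 7 in each construct, with medians of -0.12, -0.11 and -0.19. Maternal RNAs, with 8 reporters, had deposited medians of 0.31, 0.41, 0.78 and 0.69 on HMG-minus replicates 1 to 4, of 0.56, 0.18, -0.19 and -0.10 in EnRep and of 0.30, 0.16, -0.21 and -0.12 in DichaeteWT. EnRep replicate 1 was thus above HMG-minus replicates 1 and 2. At an unadjusted p below 0.05 this list had 2, 1 and 7 of its 8 reporters in EnRep, DichaeteWT and HMG-minus. Its fitted medians were 0.00, 0.02 and 0.57. The germ cell list, which also holds osk, had 0 members and 0, 1 and 4 of 5 reporters at that level. Both osk reporters were called higher in HMG-minus. The part of maternal RNAs in the member values was not tested.

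**Figure D5:**
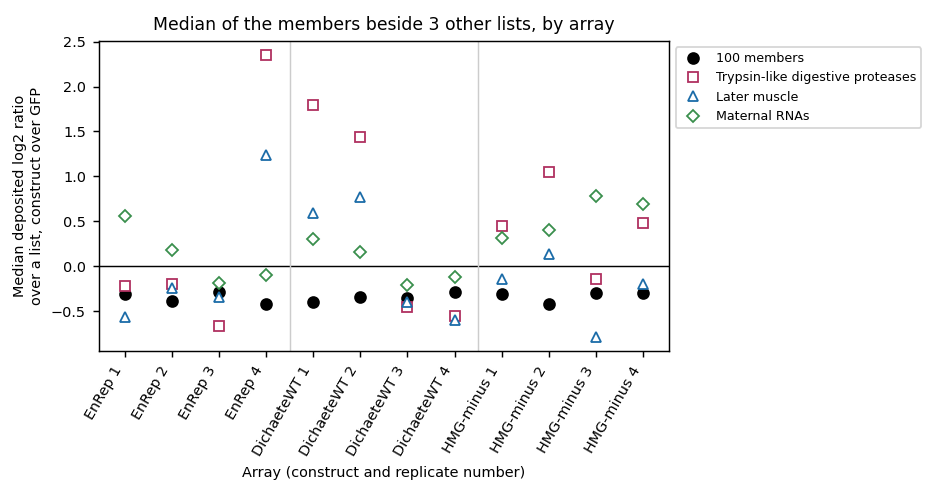
Median deposited log2 ratio of construct over GFP (y axis) of the 100 members and of the lists of trypsin-like digestive proteases, later muscle genes and maternal RNAs on each of the 12 arrays (x axis). The member medians stay between -0.42 and -0.29, while the protease median runs from -0.66 to 2.35.

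The sign on every array depended on the normalization. After background correction and loess normalization of the intensities, 60 of the 100 members were below 0 on all 12 arrays and 99 on at least 10. All 100 means stayed below 0, the highest at -0.13, and 75 were at -0.25 or lower. Sign and mean together were met again by 51 of the 100 members, among 64 such reporters before any was left out by name. Of the 1200 member values 50 were above 0, up to 0.22, and 12 of them were on EnRep replicate 4, more than on any other array. The median of the member means was -0.32 on this scale. EAChm had a re-normalised mean of -1.24 and was below 0 on all 12 arrays, from -1.67 to -0.42.

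Further reporters for the same genes were mostly near 0. Of the member genes, 5 have other reporters, 33 in all, of which 21 belong to mod(mdg4) and 9 to pip. None of the 33 was below 0 on all 12 arrays, and 3 had a mean of -0.25 or lower. The pip reporters disagreed in their means over the 12 arrays. Reporter 1000034206 was above 0 on all 12 arrays with a mean of 0.15, while reporter 1000043127 had a mean of -0.27. The median mean of the 33 was -0.07, while that of the 5 member reporters beside them was -0.30. For Ctps, Pdxk and fs(2)ltoPP43 the other reporter had a mean of 0.03, 0.01 and -0.004. Among the 33, 24 had a mean below 0, against 49.9% of all reporters. This share rests mostly on mod(mdg4) and pip, whose reporters are not independent, and nothing is read from it. mod(mdg4) and pip make many alternative transcripts, and which of these each reporter reads is not given in the sources used here.

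Some members are neighbours in the genome. Of 84 member genes placed in the Release 6 RefSeq annotation, 12 form 6 pairs within 20 kb. Qsox1 and GstE14 lie closest, 4.4 kb apart with 2 genes between them, at means of -0.50 and -0.47. SA1 and sip2 lie 6.9 kb apart, Brd8 and CG11951 9 kb, CG30080 and Impbeta11 11.3 kb, Gen and CG10674 13.6 kb and Atac2 and Pde11 19.2 kb. In each pair at least 2 other genes lie between the members. How often other genes of the array form such pairs was not tested, and no clustering is read from these.

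Outside the set, the reporters whose profile over the 12 arrays was most like the average profile of the members were those of mav, with a Pearson correlation of 0.91, Prp8, 0.88, a further mod(mdg4) reporter, 0.86, Trl, 0.86, and Doc1, 0.86. The correlations are a description over 12 arrays that share the GFP control and the dye layout. The means of these reporters lay between -0.28 for Trl and -0.12 for mod(mdg4).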

How the data were processed

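Each array was scanned in Cy3 and Cy5 and quantified with Dapple, per the file headers, which gives the median foreground and background intensity of every spot, deposited without normalization. The value table deposited by the authors holds log2 ratios of each construct against GFP. Limma is named in the submitters' processing notes, and the background correction and normalization behind the table are not given in the sources used here. Its direction was compared with the labelled dyes, and its correlation with the ratios re-normalised here was 0.872 to 0.968 per array.

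The members were chosen on the deposited log2 ratios, with spots of a reporter averaged. The set, the gene lists and the role groups were chosen with earlier results of these data known. For tests, the intensities went through limma 3.58.1 in R 4.3.3, by normexp with an offset of 50, global loess and averaging of spots, over 14485 reporters from 14569 of the 18240 spots per array. A linear model gave each construct its mean and all arrays a dye term coded +1 and -1, with empirical Bayes variances (8 residual and 4.6 prior degrees of freedom). Two-sided p-values were adjusted over all reporters by Benjamini-Hochberg, with 0.05 as the threshold. Precision is limited by the number of arrays. The code was tested on simulated data.

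Symbols came from the platform annotation, with 12574 reporters carrying 1 symbol, 96 several and 1815 none. Names and neighbours alone were taken from RefSeq genes (assembly Release 6 plus ISO1 MT), where 84 members matched. Named were the 24 members with the lowest means, those with the smallest p per construct difference, members of fixed lists, the 3 nearest the limit on each side, neighbours, up to 4 more per role, the largest dye terms and the 5 reporters with the most similar profile. No sequences are shown. Alternatives changed the background correction, normalization, probe filter, dye term, variance prior and array weights, took the deposited ratios, added a replicate block, or omitted single arrays. Whether replicate numbers pair arrays was checked by the correlation of deviations.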

Additional observations from a re-analysis of the deposited data

Results flagged for a closer look

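Among 198 groups of 4 arrays, 9 held an array far from the other 3 by Dixon's test at its 95% critical value, and chance alone gives about 1 in 20. No explanation was tested for any of them. EAChm was less reduced on EnRep replicate 4, at -0.28, than on the other EnRep arrays, and Pde11 on the same array was at -0.084. GstD5 on DichaeteWT replicate 2 was nearer 0, at -0.11, than on the other DichaeteWT arrays. On HMG-minus replicate 2 reporter 1000031933 was at -1.18, Impbeta11 at -0.93 and Ctf4 at -0.62, each the lowest of its HMG-minus arrays, and the median of the 100 members was -0.42 there against -0.31 to -0.30 on the other HMG-minus arrays. On HMG-minus replicate 4 Art7 was at -0.60 and CstF50 at -0.31.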

How the results depend on the processing

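No member was called in any of the 3 differences between constructs under any alternative, and none of the named differences changed sign. With replicate number as a replicate block 0 members were called in each difference, the Vps60 difference between EnRep and DichaeteWT stayed at -0.57 with a limma adjusted p of 0.466, and no call changed. The numbers were not taken to pair the arrays, since deviations of same-numbered arrays correlated between -0.27 and 0.52 and, after the dye term, 0 arrays were closest to an array of their own number. The number of members with a called dye term, 16, was 10 with median centring, 28 with print-tip loess, 10 with a trended and robust variance and 9 to 19 when 1 array was left out. Of the members, 60 were below 0 on all 12 arrays after re-normalization, 53 to 64 under the other normalizations and 100 in the deposited ratios, on which they were chosen. The rule took 67 members with a mean of -0.3 or lower and 127 with -0.2 or lower. Applied to 11 arrays, an alternative chosen after seeing the data, it took 100 to 145. Of 325 means of 65 named members under 5 other normalizations, 0 were at or above 0 and 2 moved by more than 1 SD, CG15236 to -1.004 with an offset of 16 and CR9337 to -0.26 with no background correction. Means of single constructs moved more, and of the 100 fitted EnRep means 37 moved by more than 1 SD under median centring, where the member median went from -0.28 to -0.42, and 22 on the deposited ratios, where it was -0.35. In EnRep 1 mean changed sign with print-tip loess, 1 with array weights, 2 without EnRep replicate 3 and 1 without EnRep replicate 4. In DichaeteWT 1 did without DichaeteWT replicate 3, and in HMG-minus 1 without HMG-minus replicate 1. With median centring 12 DichaeteWT and 4 HMG-minus means moved by more than 1 SD. Dim spots limit the ratios of CG15345, CR9337 and Ir94a. What caused these shifts was not tested.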

Other observations

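Beside the 157 reporters below 0 on all 12 arrays, 71 were above 0 on all 12, and 40 of these had a mean of 0.25 or higher. Another 116 reporters had a mean of -0.25 or lower and were below 0 on 11 of the 12 arrays, and 541 had such a mean with any pattern of signs. The 100 members are therefore a minority of the reporters with a mean that low. Leaving out HMG-minus replicate 1 enlarged the set most, to 145 reporters, 95 of them among the 100.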
